A study of Mus musculus with 10 samples.

Results

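The alveolar type 2 and surfactant genes are 10 genes that the surfactant-making epithelial cell of the lung alveolus uses: Sftpa1, Sftpb, Sftpc, Sftpd, Abca3, Lpcat1, Slc34a2, Lamp3, Napsa and Etv5. They were chosen by name and not by a cut on measured values, although earlier results of these data were known. Every probe whose gene name or accession gave one of them was taken, Lpcat1 being listed under its older name Aytl2. This gave 10 of the 27670 genes on the array, measured by 19 probes. In the study, 5 young female mice of BALB/c, an inbred laboratory strain, breathed mainstream cigarette smoke for 8 weeks, and 5 females of the same strain breathed room air only. The lung RNA of each mouse was hybridised to 1 Agilent whole mouse genome array of 60-base probes. The 10 arrays lay on 5 slides, and each slide held the smoke array and the room air array of the same replicate number. Smoke arrays always took place 1 of a slide and room air arrays place 2, so place on the slide and exposure cannot be told apart.

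Type 2 cells cover a small share of the alveolar surface and make pulmonary surfactant, a mixture of phospholipids and proteins that lowers surface tension and keeps alveoli from collapsing. The lipids and the hydrophobic proteins SP-B and SP-C are packed in lamellar bodies, which are organelles related to lysosomes, while SP-A and SP-D are soluble collectins that bind microbes and inhaled particles and are also made by club cells of the airways. Used surfactant is taken up again by type 2 cells or cleared by alveolar macrophages, and type 2 cells also serve as progenitors of the flat type 1 cells that carry gas exchange.

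Spots well above background in red made up 67.8 to 76.7% of each room air array (median 71.7%) and 64.9 to 77.5% of each smoke array (median 69.5%). Precision was limited throughout by the number of arrays. What each channel held was worked out from sex-linked genes. The Y chromosome genes Ddx3y, Eif2s3y and Kdm5d were well above background in green on 10 of 10 arrays each and in red on 2, 0 and 1. For Uty, also of the Y chromosome, this held on 0 arrays in green and 0 in red, and for Xist, the transcript that silences an X chromosome, on 10 arrays in both. Red was therefore taken to hold the lung RNA of these females, and green a common reference with male RNA in it.

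The label of the genes was checked on the same scale. All 10 were brighter in red than in green on average over the 10 arrays. The mean red signal was 304 times the green signal for Sftpd, 83.6 times for Sftpc, 48.3 times for Sftpa1 and 8.59 times for Sftpb. It was 27.7 times for Slc34a2, 18.1 times for Lamp3, 13.8 times for Napsa and 9.37 times for Lpcat1. For Abca3 it was 2.54 times and for Etv5 1.97 times. Each gene's brightest probe was well above background in red on 10 of 10 arrays, and the Sftpc probe was the brightest of all probes in red on 10 of 10 arrays. Levels below are log2 ratios of lung over reference, and a difference is the smoke mean minus the room air mean. The ratios depend on each gene's amount in the reference, so levels of different genes were not ranked.

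Several members had more than 1 probe, and the sequences below, each the first 30 of 60 bases, show which transcripts gave the values. The pairs of Sftpa1 and Slc34a2 are shown because their probes gave different differences, those of Sftpb, Sftpc and Napsa because each crosses an intron, and that of Sftpd because it carried the largest difference among the members. A dimmer Lamp3 probe and a dimmer Abca3 probe also span more than 60 bases (17930 and 463) and are not shown. In the files' mm7 build, the brighter Sftpa1 probe lies at chr14:38560683-38560742 and the second at chr14:38562129-38562188, both on the plus strand. The Sftpd probe lies at chr14:38598705-38598764 on the minus strand, so that the nearest probes of these collectin genes are 36517 bases apart. The Sftpb probe spans 2572 bases at chr6:72325120-72327691 (plus strand), that of Sftpc 261 bases at chr14:65165576-65165836 (minus strand) and that of Napsa 410 bases at chr7:40759862-40760271 (plus strand). The brighter Slc34a2 probe lies at chr5:52444189-52444248 and the second at chr5:52443055-52443114, both on the plus strand.
Sftpa1 brighter probe: catcgcaagcattacaaagaagtacaacac
Sftpa1 second probe: aaggtgaggtttctatgaatcatcctactc
Sftpb probe: cttctgctggctttgcagaactctgatcaa
Sftpc probe: ggagagctaccactctactatatctagcat
Sftpd probe: aggacaatatttggccaggagtttaaccag
Slc34a2 brighter probe: agttcccaaagacccatttatgtggcatat
Slc34a2 second probe: gctctcctaccaccagagtaacagtctgta
Napsa probe: ggatatcccttcctgaatgggcagtacttc

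The question of the comparison was whether 8 weeks of smoke went with a different level of these genes in the lung. With limma, 0 of the 10 genes passed an adjusted p threshold of 0.05, where 8.23% of all 27669 genes tested did. At an unadjusted p under 0.05 the count was also 0 of 10, where 7479 of all 41173 probes passed. An exact Wilcoxon test gave 0 after adjustment, as it did for all probes. The arrays of the groups overlapped for all 10 genes, where 7.88% of all genes had groups that did not overlap. Of the 19 probes, 0 passed, where 7.06% of all probes did, and their differences ranged from -0.16 to 0.57. The median difference over the members was 0.08, and 8 of 10 were above 0, against a median of -0.0042 and 13309 of 27669 above 0 over all genes. Without room air replicate 4, Sftpa1, Sftpb and Slc34a2 were below 0 and 5 of 10 members above 0, and the count was 6 to 9 of 10 without each of smoke replicates 2, 3 and 4. The signs of small differences also depended on scaling: median centring turned Sftpb, Abca3 and Slc34a2 below 0, scaling between arrays turned Sftpc above 0, and the red channel alone, scaled to its 75th percentile, turned Sftpb below 0 and Sftpc above 0. Every direction given here rests on the assignment of scanner files to samples, and each column of the deposited table was most like the scanner file of the other group with the same number. Which assignment is right is not known. With the scanner files as assigned, 7 of 9 macrophage markers rose in smoke and 0 fell. In whole lung, a change in the number of type 2 cells and a change in RNA per cell cannot be told apart. When the slide was fitted as a block, 2 of the 10 genes passed, Sftpd and Napsa, where 13.8% of all genes did, and 3 of the 19 probes, where 12.2% did.

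**Figure D1:**
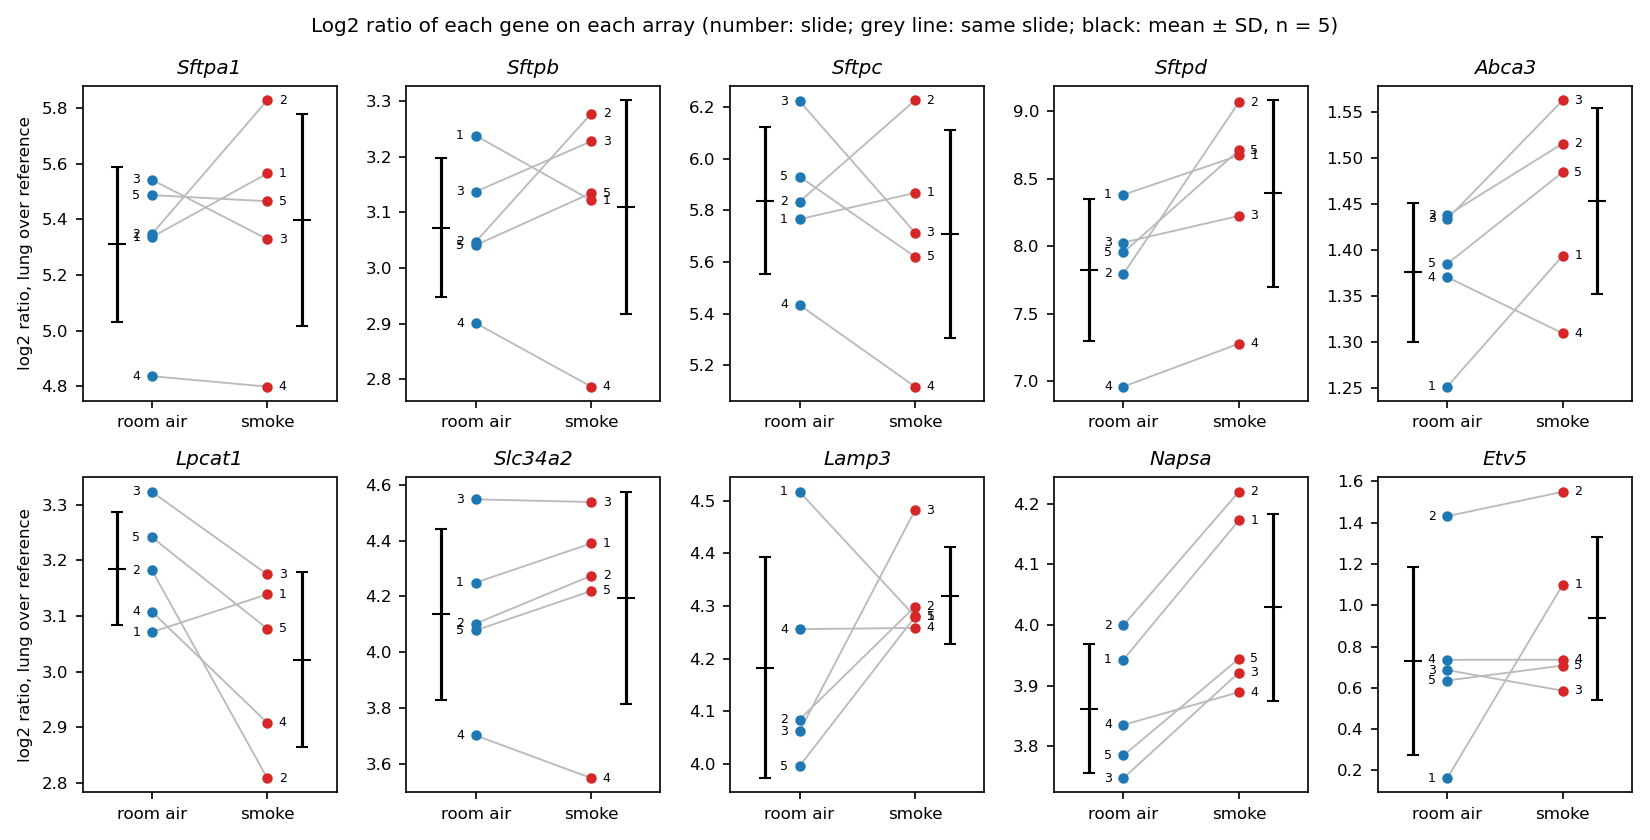
Log2 ratio of lung over reference (vertical axis, its range set per gene) of each of the 10 genes on each array, with room air in blue and smoke in red; numbers name the slide, grey lines join the arrays of a slide, and black bars show the mean ± SD (n = 5). For Sftpd and Napsa the smoke array is above the room air array on 5 of 5 slides, while the groups overlap for all 10 genes.

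The surfactant collectin Sftpd had the largest difference among the members. Its log2 ratios were 8.38, 7.80, 8.03, 6.96 and 7.95 in room air replicates 1 to 5, and 8.67, 9.07, 8.23, 7.28 and 8.71 in smoke replicates 1 to 5. Slide 4 held the lowest array of each group, the groups overlapped, and the smoke array was above the room air array on 5 of 5 slides. Within slides 1 to 5 the difference was 0.29, 1.27, 0.20, 0.32 and 0.76. The difference between the group means was 0.57 (SE 0.33, 95% interval -0.16 to 1.29), a ratio of 1.48, with an adjusted p of 0.438 in limma. With the slide as a block the interval narrowed to 0.23 to 0.91 and the adjusted p was 0.0441. That call ended without slide 2, 3, 4 or 5: the blocked adjusted p was 0.0213, 0.0545, 0.0602, 0.0769 and 0.149 without slides 1 to 5, with differences of 0.64, 0.39, 0.66, 0.63 and 0.52.

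SP-A is the other soluble collectin, and its gene Sftpa1 was measured by a pair of probes. The brighter probe had log2 ratios of 5.34, 5.35, 5.54, 4.84 and 5.49 in room air and 5.56, 5.83, 5.33, 4.80 and 5.46 in smoke. Slide 4 again held the lowest array of each group, and the smoke array was the higher one on 2 of 5 slides. The difference was 0.09 (SE 0.18, 95% interval -0.31 to 0.49, adjusted p = 0.895). At the second probe, the smoke array was higher on 4 of 5 slides, and the difference was 0.21 (95% interval -0.11 to 0.53, adjusted p = 0.544). With the block its interval was 0.05 to 0.37 and its adjusted p 0.0899, against -0.13 to 0.31 and 0.669 for the brighter probe.

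Sftpc encodes SP-C, a small hydrophobic protein made by type 2 cells and by no other mature cell type of the lung. Its log2 ratios were 5.77, 5.83, 6.22, 5.43 and 5.93 in room air and 5.87, 6.23, 5.71, 5.12 and 5.62 in smoke. Its spot was saturated in red on smoke replicate 3 and on no other array, so the ratio of 5.71 there is a lower limit and slide 3 was not read. The smoke array was higher on slides 1 and 2 and lower on slides 4 and 5, and the arrays of slide 4 were the lowest of each group. The difference was -0.13 (SE 0.19, 95% interval -0.55 to 0.29, adjusted p = 0.838) with the saturated spot at its value, and -0.13 (adjusted p = 0.85) without that array. Sftpb encodes SP-B, the hydrophobic protein without which lamellar bodies do not form and newborns cannot breathe. It had ratios from 2.90 to 3.24 in room air and from 2.79 to 3.28 in smoke, a difference of 0.04 (SE 0.09, 95% interval -0.17 to 0.24, adjusted p = 0.917). Its interval was the narrowest of the 4 surfactant protein genes and left room for ratios of smoke over room air between 0.89 and 1.18.

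Napsa encodes napsin A, an aspartic protease that cleaves the precursor of SP-B. Its log2 ratios were 3.94, 4.00, 3.75, 3.84 and 3.78 in room air and 4.17, 4.22, 3.92, 3.89 and 3.94 in smoke. Replicates 1 and 2 were the highest arrays of both groups, and the smoke array was the higher one on 5 of 5 slides, by 0.23, 0.22, 0.17, 0.05 and 0.16 on slides 1 to 5. The difference was 0.17 (SE 0.08, 95% interval -0.01 to 0.34), a ratio of 1.12, with an adjusted p of 0.299. With the slide as a block the interval was 0.06 to 0.27 and the adjusted p 0.0494. Leaving out any slide ended the blocked call, with an adjusted p of 0.0942, 0.147, 0.14, 0.0538 and 0.133 without slides 1 to 5. The differences in these fits were 0.15, 0.15, 0.17, 0.20 and 0.17.

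Abca3, the transporter that loads phospholipid into lamellar bodies, was measured by 4 probes. Its brightest probe had ratios from 1.25 to 1.44 in room air and from 1.31 to 1.56 in smoke, with the smoke array higher on 4 of 5 slides. The difference was 0.08 (SE 0.06, 95% interval -0.05 to 0.21, adjusted p = 0.602), which leaves ratios of smoke over room air above 1.16 outside this probe's interval. Of the other Abca3 probes, 2 gave differences of 0.15 and 0.09, with intervals that reached ratios of 1.27 and 1.39. The last was not well above background in red on any array. Lamp3, a membrane protein of lamellar bodies, also had 4 probes, of which 1 was not well above background in red on any array. At its brightest probe the ratios ran from 4.00 to 4.52 in room air and from 4.26 to 4.48 in smoke, and the smoke arrays were the less spread (SD 0.09 against 0.21). The difference was 0.14 (SE 0.09, 95% interval -0.07 to 0.34, adjusted p = 0.537), and the dimmer probes above background gave 0.23 and 0.25. On slide 1 the smoke array was lower by 0.24 on the log2 scale (-0.24), and on slide 3 it was higher by 0.42.

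Lpcat1, an acyltransferase that remodels lysophosphatidylcholine into the saturated phosphatidylcholine of surfactant, had the lowest difference among the members. Its log2 ratios were 3.07, 3.18, 3.32, 3.11 and 3.24 in room air and 3.14, 2.81, 3.17, 2.91 and 3.08 in smoke. Smoke replicate 2 was the lowest array, and the smoke array was the lower one on every slide but slide 1. The difference was -0.16 (SE 0.08, 95% interval -0.34 to 0.01, adjusted p = 0.313, and 0.157 with the block, where the interval was -0.31 to -0.02). The blocked fit without slide 1 gave -0.22 with an adjusted p of 0.0304, and those without slides 2, 3, 4 and 5 gave -0.11, -0.17, -0.15 and -0.16 with an adjusted p of 0.385, 0.293, 0.303 and 0.306.

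Slc34a2 encodes the sodium-phosphate cotransporter through which type 2 cells take up the phosphate set free from surfactant phospholipid. The brighter probe had log2 ratios of 4.25, 4.10, 4.55, 3.70 and 4.08 in room air and 4.39, 4.27, 4.54, 3.55 and 4.22 in smoke. Replicate 3 was the highest and replicate 4 the lowest array of both groups, and the difference was 0.06 (SE 0.19, 95% interval -0.36 to 0.47, adjusted p = 0.938). At the second probe the smoke array was higher on 5 of 5 slides. Its difference was 0.25 (95% interval -0.09 to 0.58, adjusted p = 0.474), with an adjusted p of 0.0352 with the block. This was the third of the 3 probes called with the block, and the gene's brighter probe was not called (adjusted p = 0.643 with the block).

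Etv5 is a transcription factor of the Ets family that acts downstream of Fgf signalling and maintains the type 2 cell state. Its brighter probe had log2 ratios of 0.16, 1.43, 0.69, 0.74 and 0.64 in room air and 1.10, 1.55, 0.59, 0.74 and 0.71 in smoke. Replicate 2 was the highest array of both groups, and room air replicate 1 was the lowest of all. The difference was 0.21 (SE 0.23, 95% interval -0.30 to 0.71, adjusted p = 0.764). It depended on single arrays, being 0.05 without smoke replicate 2, 0.06 without room air replicate 1 and 0.38 without room air replicate 2. Of the within-slide differences, that of slide 1 was 0.94 and the others lay between -0.10 and 0.12. The second probe gave 0.13 (95% interval -0.18 to 0.44, adjusted p = 0.743).

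**Figure D2:**
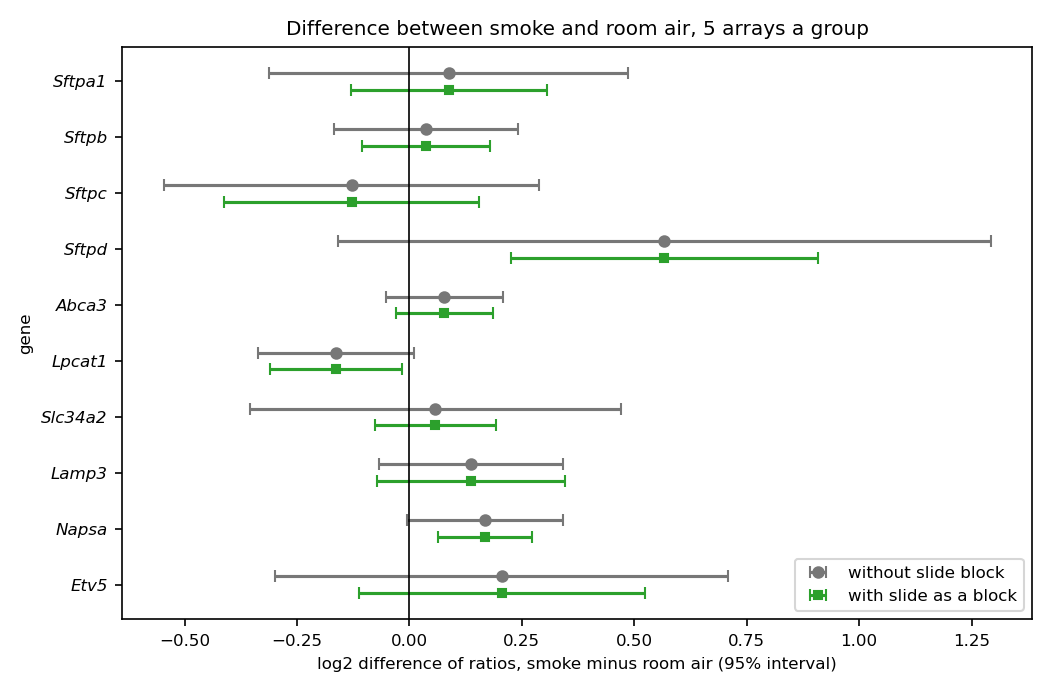
Log2 difference of ratios, smoke minus room air (horizontal axis), of the 10 genes (vertical axis), with 95% intervals (5 arrays a group). Grey circles are without and green squares with the slide as a block; grey intervals all include 0, and green intervals lie above 0 for Sftpd (0.23 to 0.91) and Napsa (0.06 to 0.27) and below 0 for Lpcat1 (-0.31 to -0.02), which did not pass after adjustment.

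The arrays of slide 4 stood apart for these genes. Room air replicate 4 was the lowest room air array for 5 of the 10 genes, and smoke replicate 4 the lowest smoke array for 8 of 10. On average over the members they deviated from their group means by -0.24 and -0.39, where the median deviation over all genes was -0.013 on both. The SD of all ratios on an array was also lowest on slide 4 within each group, at 0.97 in room air and 0.94 in smoke, against 0.99 to 1.07 and 0.96 to 1.03 on the other slides. The part of slide 4 in the members' values was not tested beyond leaving its arrays out. Without room air replicate 4 the limma fit called 0 of the 10 genes, where 7.84% of all genes passed, and without smoke replicate 4 also 0, where 6.80% did.

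Among the members, 45 pairs were compared over the 10 arrays, which share slides in pairs. Pearson's r ran from -0.6 to 0.898 with a median of 0.375. The highest value was that of Sftpa1 with Sftpc (r = 0.898, rho = 0.891), followed by Sftpa1 with Sftpd (r = 0.886, rho = 0.685). The lowest was that of Lpcat1 with Napsa (r = -0.6, rho = -0.515). Pairs with Sftpc use the saturated spot of smoke replicate 3, whose ratio is a lower limit, so their r and rank are not exact. Without the arrays of slide 4, which lay farthest from the median of the members' mean, the median r was 0.172, and 8 pairs in place of 13 had r above 0.5. Sftpa1 with Sftpc then had r = 0.739, Sftpa1 with Sftpd r = 0.662, and Lpcat1 with Napsa r = -0.788. The extremes were then other pairs, with Sftpb and Lamp3 the highest (r = 0.798, from 0.385) and Sftpd and Lpcat1 the lowest (r = -0.833, from -0.209). Sftpb with Slc34a2 went from r = 0.868 (rho = 0.77) to r = 0.463, and Sftpa1 with Slc34a2 from r = 0.786 (rho = 0.564) to r = 0.0548, so the latter relation rested on slide 4.

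Each channel was also fitted alone after quantile normalization over the 10 arrays. In red, the lung channel, Sftpd had log2 signals of 16.91, 16.02, 16.18, 16.40 and 15.96 in room air and 17.18, 16.98, 17.36, 17.24 and 17.22 in smoke. Every smoke array was above every room air array. In red alone Sftpd rose by 0.90 (SE 0.16, 95% interval 0.54 to 1.26, adjusted p = 0.00882, limma), and it was the only one of the 10 genes to pass, where 6.68% of all genes did. For Sftpd the arrays of slide 4 were not the lowest in this channel, but they were the lowest of each group for both Sftpa1 probes and the brightest probes of Abca3 and Lamp3. At the probe level, 2 of the 19 passed in red, where 5.67% of all probes did, the other being the second Sftpa1 probe, which rose by 0.57 (adjusted p = 0.0227). The brighter Sftpa1 probe had a red difference of 0.35 (95% interval 0.09 to 0.61, adjusted p = 0.147), and with the block it passed (adjusted p = 0.0182), as did Sftpd (adjusted p = 0.00447), where 15.0% of all genes did.

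In green, the reference channel, 0 of the 19 probes passed in limma, where 0.0340% of all probes did. The green difference of Sftpd was 0.52 (95% interval -0.27 to 1.30, adjusted p = 1) and that of the brighter Sftpa1 probe was 0.43 (95% interval 0.14 to 0.73, adjusted p = 1). The second Sftpa1 probe had a green difference of 0.39 (95% interval 0.18 to 0.60, adjusted p = 0.935). The green signal of all 3 probes was higher on the smoke array on 5 of 5 slides. With the block the intervals were 0.22 to 0.81 for Sftpd and 0.17 to 0.70 and 0.22 to 0.56 for Sftpa1, and none passed (adjusted p = 0.462, 0.589 and 0.147). The part of these green differences in the red and ratio values was not tested. For Sftpc the red difference was 0, since quantile normalization gives the brightest probe of every array the same value. Napsa had a red difference of 0.14 (95% interval -0.03 to 0.31, adjusted p = 0.479) and a green difference of 0.04 (95% interval -0.11 to 0.18, adjusted p = 1).

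**Figure D3:**
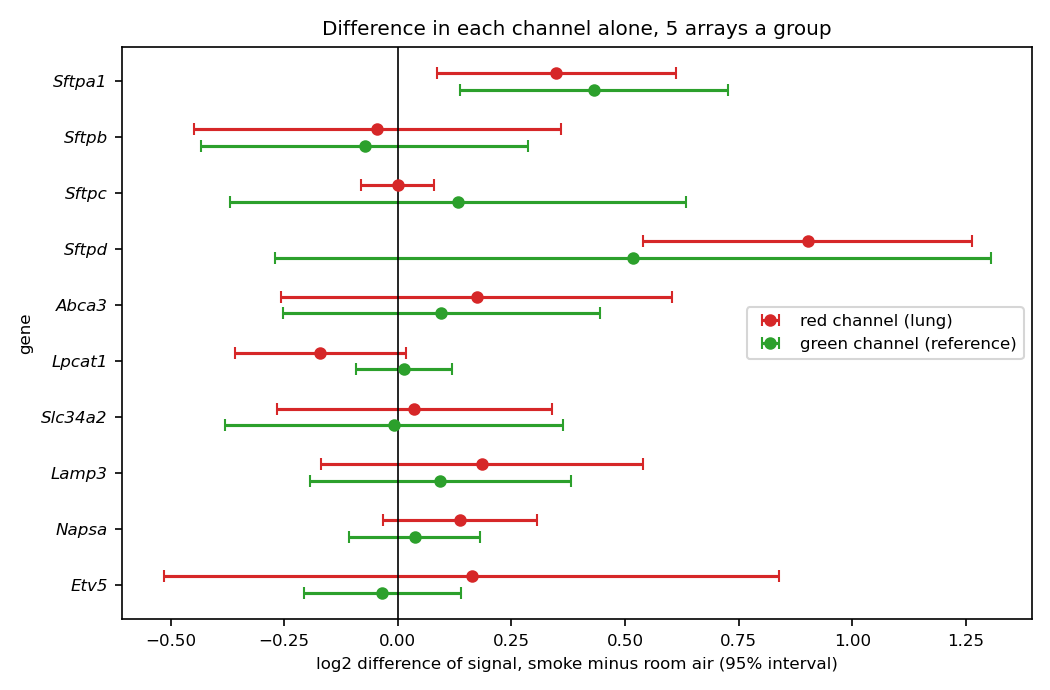
Log2 difference of signal, smoke minus room air (horizontal axis), of the 10 genes (vertical axis) in the red lung channel and in the green reference channel, with 95% intervals (5 arrays a group). Sftpd has a red difference of 0.90 and a green difference of 0.52, and Sftpa1 0.35 and 0.43.

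The other genes of surfactant biology were taken as lists, and the counts leave out the members. Over 6 lists with 96 measured genes, 14 genes rose and 6 fell, or 20.8%, where 4.96% of all genes were called higher and 3.27% lower. Of these calls, 8 rises and 1 fall came from the 14 genes of uptake and clearance. Of the 96 genes, 92 were well above background in red on all 10 arrays. In a fit of only the probes well above background in red on at least 5 arrays, 12.4% of genes were called. With the slide as a block 34 of the 96 passed, where 13.8% of all genes did, and the blocked count was 45, 25, 24, 23 and 22 without slides 1 to 5. Without room air replicate 1, in the fit without a block, 32 passed, where 10.4% of all genes did. The lists differed in how many of their genes passed and in the direction.

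Genes of surfactant protein processing and of the lamellar body had 2 genes higher and 0 lower of 11, with a median difference of 0.07. Ctsh, a cathepsin that processes the precursors of SP-B and SP-C, rose by 0.42 (SE 0.11, adjusted p = 0.0426, limma). Hps1, a subunit of a complex that forms lysosome-related organelles, rose by 0.26 (SE 0.06, adjusted p = 0.0214). The call of Ctsh ended without room air replicate 1, 2 or 4 or smoke replicate 1, 2, 3 or 5 (adjusted p = 0.0669 to 0.111), and that of Hps1 without room air replicate 3 (adjusted p = 0.0566). In these fits the difference was 0.34 to 0.43 for Ctsh and 0.24 for Hps1. The calls held under 17 and 20 of 29 alternative settings. The blocked call of Ctsh held without each slide in turn (adjusted p = 0.00414 to 0.0272), as did that of Hps1 (0.0109 to 0.0347). With the block, 5 of the 11 passed, all 5 higher, and without slides 1 to 5 the blocked count was 3, 2, 2, 3 and 2. Ctsh is also found in macrophages, whose markers moved as described with the cell type lists.

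Of the genes of surfactant lipid synthesis, 3 rose and 0 fell of 23, with a median difference of 0.03. Fasn, the synthase that makes palmitate, rose by 0.53 (SE 0.11, adjusted p = 0.0116, limma), and Gpam, which starts glycerolipid synthesis in mitochondria, rose by 0.28 (SE 0.05, adjusted p = 0.00425). For both genes every smoke array was above every room air array, and the calls held under 27 and 25 of 29 alternative settings. Lpin1, a phosphatidate phosphatase, rose by 0.21 (SE 0.05, adjusted p = 0.0275). This call held under 13 of 29 settings and ended without room air replicate 2, 4 or 5 or smoke replicate 1, 3, 4 or 5 (adjusted p = 0.0595 to 0.0703). The difference in these fits was 0.19 to 0.21.

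The list of surfactant uptake and clearance had 8 genes higher and 1 lower of 14, with a median difference of 0.68. Most of these genes act in alveolar macrophages, which take up and break down surfactant. Marco, a scavenger receptor of these cells, had log2 ratios of 4.86, 2.82, 2.74, 2.49 and 3.32 in room air and 6.13, 5.92, 6.10, 4.97 and 6.07 in smoke. Room air replicate 1 was the highest of its group and smoke replicate 4 the lowest of its group, and the groups did not overlap. Marco rose by 2.60 (SE 0.41, adjusted p = 0.00248, limma). Csf2rb, the shared chain of the receptor for GM-CSF, on which surfactant clearance depends, rose by 1.43 (SE 0.18, adjusted p = 0.0007). Lpl, which frees fatty acids from lipoproteins, rose by 0.95 (SE 0.08), Abcg1, a cholesterol exporter, by 0.84 (SE 0.10) and Plin2, a coat protein of lipid droplets, by 0.80 (SE 0.10). The other 3 rose by 0.48 to 0.78. Cd36, a fatty acid receptor also found on endothelium, fell by 0.51 (SE 0.07, adjusted p = 0.00168). Each of the genes named from this list kept its call without any 1 array.

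Of the transcription factors of type 2 cells, 1 rose and 1 fell of 16, with a median difference of 0.18. Id2, an inhibitor of helix-loop-helix factors, rose by 0.28 (SE 0.06, adjusted p = 0.0228, limma), a call that ended without smoke replicate 2, 4 or 5 (adjusted p = 0.0514 to 0.0612). In each of these fits its difference was 0.27. Nfib, a factor of lung maturation found in epithelium and mesenchyme, fell by 0.38 (SE 0.07, adjusted p = 0.00801). With the block 7 of the 16 passed, 5 higher and 2 lower, or 10, 3, 3, 3 and 2 without slides 1 to 5. The count of 2 without a block became 7 when room air replicate 1 was left out and 1 when smoke replicate 2 or 5 was. Nkx2-1, the factor that drives surfactant gene expression, was singled out after its values were seen. It had a difference of 0.03 (SE 0.12, 95% interval -0.23 to 0.30, adjusted p = 0.943).

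Among the genes of Fgf and Erk signalling around Etv5, 0 rose and 2 fell of 15, with a median difference of -0.12. Dusp6, a phosphatase that inactivates Erk and is induced by it, had log2 ratios of 0.58, 0.33, 0.58, 0.34 and 0.81 in room air and 0.08, -0.20, 0.01, -0.17 and 0.08 in smoke. Every smoke array was below every room air array, and Dusp6 fell by 0.57 (SE 0.10, adjusted p = 0.00428, limma). Spry2, a feedback inhibitor of Fgf receptors, fell by 0.39 (SE 0.06, adjusted p = 0.00159), also with groups that did not overlap. The calls of Dusp6 and Spry2 held under 27 of 29 alternative settings, and with the block 4 of the 15 genes passed, 1 higher and 3 lower, or 8, 3, 2, 2 and 2 without slides 1 to 5. Without room air replicate 1 the fit without a block also called 4. These genes are active in many cell types of the lung, and which cells carried the fall was not measured.

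Other markers of type 2 cells had 0 genes higher and 2 lower of 18, with a median difference of 0.02. Bex2 fell by 1.08 (SE 0.19, adjusted p = 0.00472, limma), and its call held under 26 of 29 alternative settings. Ppp1r14c, an inhibitor of protein phosphatase 1, fell by 0.35 (SE 0.10, adjusted p = 0.0491). This call held under 14 of 29 settings and, of the arrays left out in turn, only without room air replicate 1 or 4. Without any other array the adjusted p was 0.057 to 0.103 and the difference -0.39 to -0.27. With the block 4 of the 18 passed, 2 higher and 2 lower, or 6, 3, 4, 3 and 3 without slides 1 to 5, and without room air replicate 1 the fit without a block called 4.

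**Figure D4:**
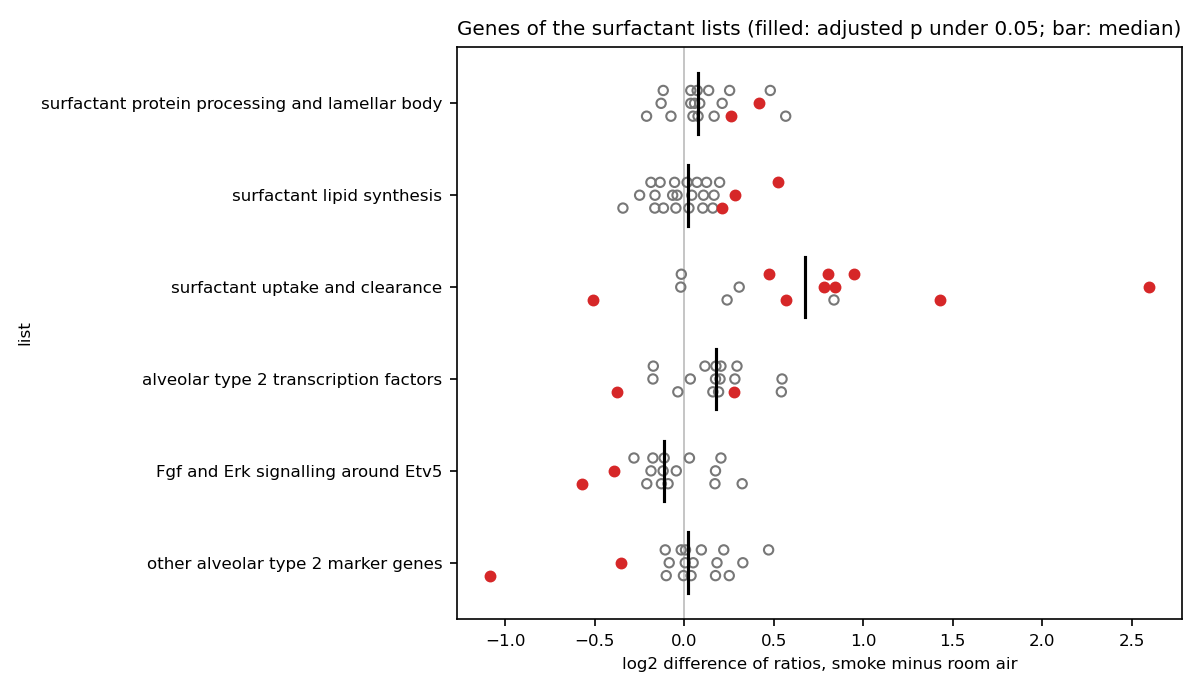
Log2 difference of ratios, smoke minus room air (horizontal axis), of each measured gene of the 6 surfactant lists (vertical axis), members included; filled red points passed an adjusted p of 0.05, open points did not, and black bars show list medians. The uptake and clearance list lies farthest to the right, with Marco at 2.60, and Bex2 of the other markers lies farthest to the left at -1.08.

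Markers of the other cells of the lung were read beside these results. Of the macrophage markers, 7 of 9 rose and 0 fell, with a median difference of 1.34. Marco had the largest difference, at 2.60, and the brightest gene, Lyz2, which type 2 cells also express, had a difference of 0.18 (95% interval -0.19 to 0.54, adjusted p = 0.705). All 9 were well above background in red on 10 arrays, so that none was at 0. The summed red signal of the list, after quantile normalization, was 448335, 420851, 449884, 347598 and 447028 in room air and 485751, 486357, 575814, 434351 and 536444 in smoke, a ratio of means of 1.19. Lyz2 made up 73.4 to 93.2% of these sums, and without it the ratio was 3.92, or 2.74 without the 3 brightest genes. Replicate 4 had the lowest sum of both groups, and the sum of smoke replicate 4 lay among the room air sums. Marco is in this list and in that of uptake and clearance, and Lyz2 is also among the other type 2 markers. The macrophage markers moved with the genes of uptake and clearance, and their part in that result was not tested.

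The type 1 cell markers had 0 genes higher and 2 lower of 11, with a median difference of -0.16. With the block 4 passed, all lower, and in red alone 5 did. Cav1, the brightest of them and also an endothelial gene, fell by 0.64 (SE 0.09, adjusted p = 0.0011, limma), and Emp2, the other gene called, fell by 0.39. The summed red signal of this list was 302692, 319956, 348379, 295511 and 319866 in room air and 234337, 217852, 255750, 237056 and 232735 in smoke. The smoke sums were all below the room air sums, with a ratio of means of 0.742. The list of type 2 markers is the same as the 10 members. Its sums were 1014738, 931077, 925721, 902648 and 911020 in room air and 1070044, 1014211, 1109572, 1018405 and 1060972 in smoke, and the ratio of means was 1.13. Sftpc, whose value is the same on every array after quantile normalization, made up 57.0 to 70.1% of these sums, so this part could not differ. Without Sftpc the ratio was 1.39, and without Sftpa1 and Sftpd as well it was 1.07.

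Of the airway lists, the 7 markers of club and secretory cells had 0 genes called in limma, where 8.23% of all genes were. At an unadjusted p under 0.05 there were 2, where 7479 of all 41173 probes passed. With the block 2 were called, both higher, where 13.8% of all genes were, and in red alone 1, where 6.68% were. The Wilcoxon test called 0, as it did for all probes. The median difference of the 7 markers was 0.23. The brightest was Scgb1a1, with a difference of -0.20 (95% interval -0.59 to 0.19, adjusted p = 0.684). The 7 markers of ciliated cells also had 0 called, with 0 at an unadjusted p under 0.05 and 0 with the block, and the brightest was Tppp3, at -0.07 (adjusted p = 0.904). Of 8 general epithelial genes, 2 rose, and 3 were called with the block and 0 in red alone. Krt19, a keratin of simple epithelium, rose by 0.29 (SE 0.05, adjusted p = 0.00471), and Krt8, a keratin that pairs with keratins of that kind, by 0.25 (SE 0.06, adjusted p = 0.0324). The Krt8 call ended without room air replicate 2, 4 or 5 or smoke replicate 1, 2 or 3 (difference 0.20 to 0.25, adjusted p = 0.0576 to 0.079). The brightest gene, Krt7, had a difference of -0.06 (adjusted p = 0.683). The ratio of the mean summed signals was 1.03 for club and secretory, 0.871 for ciliated and 1.02 for general epithelial markers, and 1.25, 1.15 and 1.11 without the brightest gene of each. Without the 3 brightest genes of each it was 2.52, 1.22 and 1.08.

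Of 8 neutrophil markers, 2 rose, and the largest difference was that of Mmp8, at 1.16 (SE 0.26, adjusted p = 0.021). That call ended without room air replicate 2, 3 or 5 or smoke replicate 1 (difference 1.08 to 1.13, adjusted p = 0.0523 to 0.0562). The brightest, S100a9, had a difference of 0.16 (adjusted p = 0.852), and the sum of room air replicate 1 stood apart at 155850, against 22082 to 32454 on the other room air arrays and 35313 to 62538 in smoke. Of 8 lymphocyte markers 0 were called in limma, with 0 at an unadjusted p under 0.05, where 7479 of all 41173 probes passed. With the block 1 was called, where 13.8% of all genes were. The brightest lymphocyte marker was Cd79b, at 0.32 (adjusted p = 0.342, limma). Of 7 endothelial markers 1 fell, Pecam1, by 0.41 (adjusted p = 0.0488), where 2 were called with the block and 5 in red alone. The Pecam1 call ended without room air replicate 2, 3 or 5 or smoke replicate 1, 2, 4 or 5 (difference -0.43 to -0.33, adjusted p = 0.0761 to 0.119). The brightest endothelial gene was Cldn5, at -0.12 (adjusted p = 0.654). Of 7 fibroblast markers 3 fell, and 3 were called with the block and 4 in red alone. Tcf21 fell by 0.35 (adjusted p = 0.0492), a call that ended without any 1 array other than room air replicate 4 (difference -0.38 to -0.29, adjusted p = 0.0575 to 0.122). Pdgfra had the largest difference of the 3 and fell by 0.49 (SE 0.04, adjusted p = 5.95e-05), while the brightest fibroblast marker, Inmt, had a difference of -0.29 (adjusted p = 0.367). The ratios of mean summed signals were 0.86, 1.19, 0.666 and 0.683 for these lists in turn, 1.07, 1.13, 0.769 and 0.876 without the brightest gene of each, and 1.24, 1.03, 0.698 and 0.82 without the 3 brightest. The neutrophil ratio was 1.69 without room air replicate 1. The part of these cell types in the members' values was not tested.

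**Figure D5:**
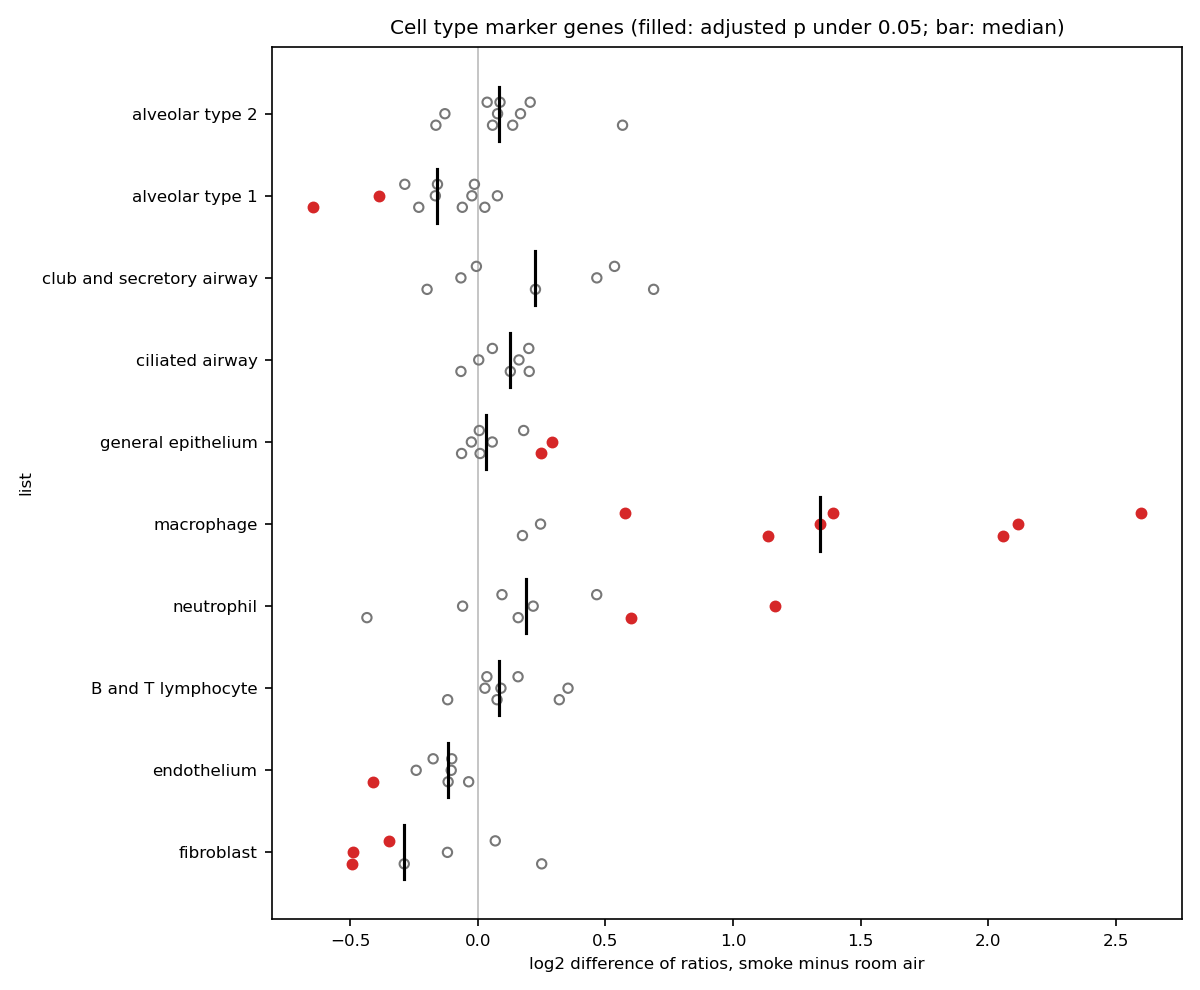
Log2 difference of ratios, smoke minus room air (horizontal axis), of each measured marker gene of 10 cell type lists (vertical axis); filled red points passed an adjusted p of 0.05, open points did not, and black bars show list medians. The macrophage list has a median of 1.34, that of type 2 cells 0.08 and that of type 1 cells -0.16.

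The genes most like the mean of the members over the 10 arrays were sought among 17116 genes well above background in red on all arrays. They were Igh-VJ558 (r = 0.982, rho = 0.842), Apoe (r = 0.96, rho = 0.867), Cldn3 (r = 0.957, rho = 0.915), Cyp4b1 (r = 0.953, rho = 0.782) and A830073O21Rik (r = 0.951, rho = 0.879). Without the arrays of slide 4, r was 0.938, 0.893, 0.888, 0.816 and 0.854 over 8 arrays. In limma 0 of these 5 genes passed. Their differences ran from 0.02 for Cyp4b1 to 0.27 for Apoe, which had the lowest blocked adjusted p of them (0.0577).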

How the data were processed

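The deposited scanner files hold, for every spot, the intensity in red and in green and that of the local background, written per the file headers by Agilent Feature Extraction 9.5.3.1. The submitters' processing notes name version 9.1. The deposited files also carry the software's log10 ratio (red over green, dye-corrected). The labels describe a single dye, Cy3, whereas the files hold 2 channels, so the ratio took the place of the single channel for which the comparison had been written. A second deposited file is a series-wide table in log2 units, with 25755 to 34294 values per array and column medians of 7.34 to 8.06. Over 24209 spots its columns follow the mean log2 signal of both channels. All 10 were most like the array of the other group with the same number (centred r at least 0.978, against at most 0.758 for the array of the same name). How the authors centred or filtered the table is not given in the sources used here. That table was used only as an alternative.

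Mean intensities were corrected with normexp against the median local background (offset 50) and normalized by loess within each array, with control spots left out and spots with an outlier flag set missing. Spots of a probe were averaged, and a gene was represented by its probe with the brightest mean red signal. No dim probes were filtered. Groups, taken from the sample titles, were compared two-sided in R 4.3.3 with limma 3.58.1 (lmFit, then eBayes), and data were read with version 1.17.8 of data.table. Adjusted p-values are Benjamini-Hochberg values over 41173 probes, with a threshold of 0.05, and intervals are 95%. Steps were tested on simulated data. Of 41174 probes, 22951 were named through the accession, 6659 had a current symbol, 3109 matched a synonym and 8455 were left with the name in the file. Coordinates are those of the files' build, mm7.

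Arrays of the same number lay on 1 slide, and the slides were scanned on 4 days. Their deviations from the group means correlated, over 41133 probes, at 0.157, 0.460, 0.461, 0.550 and 0.415. For different numbers the median was -0.124 and the maximum 0.205. The shared slides pair the samples, and for numbers 2 to 5 so do these correlations. For number 1 the correlation of 0.157 was below its highest with a different number (0.205), so only the slide pairs it.

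The members and lists were chosen with earlier results of these data known. The text names the members with all their probes; of each surfactant list the called genes, at most the 5 with the largest difference in each direction; of each marker list the brightest gene and the called genes with the largest difference; the 5 genes most like the members' mean; and the genes used to read the channels. Other called marker genes were named after their values were seen. Of the list genes, Sfta2 and Ear2 were not measured. Tried as alternatives were the block, filters, background correction, normalization, the red channel alone, other tests, array weights, the mean of all probes, the deposited table and leaving out each array or slide.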

Additional observations from a re-analysis of the deposited data

Results flagged for a closer look

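Of the 20 groups of 5 log2 ratios looked at, the 10 members in each exposure, 1 had an array far from the others. The Lamp3 ratio of smoke replicate 3 was 4.48, the highest of its group, against 4.30 for the nearest smoke array, a gap of 0.818 of the group's range. Chance alone singles out about 1 in 20 such groups.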

How the results depend on the processing

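Of 31 alternatives, 25 were planned and 6 were chosen after seeing the data (the replicate block with the red channel alone, and the block without each slide in turn). Causes were not tested, except where fewer arrays or a stricter threshold entered by construction. The limma fit called 2906 of 41173 probes. The count was 5019 with the replicate block, 1660 with a normexp offset of 0, 1434 with median centring, 1759 with the red channel scaled to its 75th percentile, 0 with the Wilcoxon test (smallest p 0.00794, smallest adjusted p 0.115, 5446 probes at an unadjusted p under 0.05), 5536 with the block in red alone, 6088, 3410, 2856, 3617 and 3053 with the block without slides 1 to 5 in turn, and 1428 at an adjusted p under 0.01. Leaving out 1 array gave 2102 to 3660. At the gene level 60.2% of calls were higher, against 72.5% with an offset of 0 and 48.6% with median centring.

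With the replicate block, 2 members passed, Sftpd (0.57) and Napsa (0.17), where 13.8% of all genes did, and the block changed no other member's call. Over all lists it called 34 genes in place of 20; by list it called 5 for processing, 7 for transcription factors, 4 for Fgf and Erk signalling and 4 for other markers. In red alone at the 75th percentile 2 members passed, Sftpd (1.12) and Sftpa1 (0.60), where 4.90% of all genes did, with Sftpb at -0.061 and Sftpc at 0.16 reversed, and processing had 1 call, lipid synthesis 0, Fgf 1 and other markers 4. Red with quantiles called 1 member, Sftpd (0.90), and 6.68% of all genes, with Sftpb reversed at -0.045, and 1, 1, 4 and 5 genes for processing, lipid synthesis, transcription factors and other markers. With the block in red alone, 2 members passed, Sftpd (0.90) and Sftpa1 (0.35), where 15.0% of all genes did, Sftpb was at -0.045, and the lists had 36 calls: processing 4, lipid synthesis 5, transcription factors 4, Fgf 5 and other markers 7. With the block without slide 1, 2 members passed, Sftpd (0.64) and Lpcat1 (-0.22), where 16.6% of all genes did, and the lists had 45 calls: lipid synthesis 6, transcription factors 10, Fgf 8 and other markers 6. Without slides 2 to 5 the block called 0 members and 25, 24, 23 and 22 genes over the lists, where 2632, 2217, 2766 and 2371 of all 27669 genes passed (3816 with every slide), with 2 to 3 for processing. Without slide 2, Sftpa1 was at -0.011 and Sftpb at -0.012 with the block, and without slide 3 other markers had 4 calls.

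Median centring turned Sftpb (-0.072), Abca3 (-0.025) and Slc34a2 (-0.051). It left 12 calls over the lists, where 4.14% of all genes passed: processing 0, lipid synthesis 1, transcription factors 0, Fgf 1 and other markers 1. An offset of 0 left 13 calls, where 4.69% of all genes passed, with 0 for processing, transcription factors and other markers. The Wilcoxon test left 0 for every list. Without background correction processing and other markers had 1 each, with the scanner's own ratio 1 and 0, and with scaling between arrays 1 and 1, with 4 for transcription factors and Sftpc turned to 0.15. The scanner's own ratio also turned the fibroblast marker Tcf21, to 0.01 (adjusted p = 1). Array weights gave 4 for processing and 5 for transcription factors, and the mean of all probes 1 for processing. In the deposited table, with columns as labelled, Sftpa1 was at -0.44, Sftpd -0.81, Abca3 -0.076, Lpcat1 0.17, Lamp3 -0.092 and Napsa -0.071. Each of its columns was most like the scanner file of the other group, and which assignment is right is not known (with the scanner files as assigned, 7 of 9 macrophage markers rose). Sftpb was at 0.13, Sftpc -0.063, Slc34a2 0.16 and Etv5 0.12. With the columns turned, the signs of these 4 would be opposite to those of the limma fit. The table follows the mean log2 signal of both channels, reference included, and the limma fit the ratio of lung over reference. The measures are therefore unlike, and a differing sign does not give a direction in lung.

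Leaving out 1 array gave 0 members and 16 to 32 calls over the lists, where 6.07 to 10.4% of all genes passed. By list it gave 1 to 2 for processing, 2 to 4 for lipid synthesis, 9 to 11 for uptake, 1 to 7 for transcription factors, 2 to 4 for Fgf and 1 to 4 for other markers. The highest counts over the lists, for transcription factors, Fgf and other markers came without room air replicate 1, as did the highest share of all genes (10.4%). Member differences ran from -0.031 to 0.24 for Sftpa1 and -0.006 to 0.12 for Sftpb (both below 0 without room air replicate 4 or smoke replicate 2), -0.26 to 0.020 for Sftpc (above 0 without smoke replicate 4), -0.051 to 0.22 for Slc34a2 (below 0 without room air replicate 4 or smoke replicate 3), 0.35 to 0.85 for Sftpd, 0.05 to 0.11 for Abca3, -0.20 to -0.11 for Lpcat1, 0.09 to 0.22 for Lamp3, 0.12 to 0.20 for Napsa and 0.05 to 0.38 for Etv5.

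Signal over background limits these values. Red signals had a median of 1.68 to 2.82 times background, depending on the array, and an offset of 50 shrinks differences of dim probes, of which Etv5 is the dimmest member. Sftpc, at the top of the scale, was saturated on 1 array, and its red difference under quantile normalization is 0 by construction.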
